A study of Mus musculus with 9 samples.

Results

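The genes of the mitochondrial ribosomal proteins were followed through low oxygen and thyroid hormone in mouse neurons. The members are the rows of the deposited table whose symbol starts with Mrpl or Mrps and a number and whose value lies above 1 in at least 3 of the 9 libraries. The pattern matched 77 of the 24054 rows, 48 with Mrpl for the large and 29 with Mrps for the small subunit. All 77 were past the filter, among 12923 genes tested. The cells were primary cortical neurons of wild-type C57BL/6 mice, grown for 6 days in Neurobasal medium with B27 supplement. A first group stayed in normoxia, a second spent 7 hours in 0.2% oxygen (hypoxia), and the third spent the same 7 hours in 0.2% oxygen with 10 nM T3, the active thyroid hormone triiodothyronine, in the medium (hypoxia with T3, shortened to T3 in library names). Each group has 3 libraries of polyadenylated RNA, named here by the number in their column header. A group with T3 in normal oxygen was not analysed here, and the labels used here do not say how many animals or cultures stand behind a group, so p-values weigh differences against a spread between libraries that may be technical.

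Mitochondria keep their own ribosome, which reads the few messages of the mitochondrial genome and makes core subunits of the respiratory chain and of ATP synthase. Its ribosomal RNAs come from that genome, but every one of its proteins is encoded in the nucleus, made in the cytosol and imported. Many of these proteins descend from bacterial ribosomal proteins, and others were added in the mitochondrial lineage. Neurons depend heavily on oxidative phosphorylation, whose subunits come partly from this ribosome, and low oxygen and thyroid hormone are both known to act on that system. Nuclear genes of this kind are known to carry promoter sites for the factors NRF1, GABP (an ETS-family factor) and YY1.

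The stretches just before the start sites are shown for Mrpl45, Mrpl42, Mrps24 and Mrpl50, which are 4 of the 6 members whose call in hypoxia held without any single library. Mrpl32 and Mrps27, one called higher and the other lower, are shown because theirs hold matches to 2 of the motifs. The gap between Mrps11 and Mrpl46 is shown because the 2 genes start next to each other. The promoter table (RefSeq, GRCm38.p6) holds 68 of the 77 members. Each stretch ends at the base before the RefSeq start and reads 5′ to 3′ on the strand of the gene. Capitals mark matches, on either strand, to GCGCATGC (NRF1), CCGGAAG (ETS) or AAGATGGC (YY1).
Mrpl45, chr11:97315626-97315715, plus strand: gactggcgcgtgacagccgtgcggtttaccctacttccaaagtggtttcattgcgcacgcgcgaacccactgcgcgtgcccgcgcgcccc
Mrpl42, chr10:95501950-95502039, minus strand: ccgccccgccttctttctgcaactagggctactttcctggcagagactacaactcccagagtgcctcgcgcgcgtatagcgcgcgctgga
Mrps24, chr11:5707702-5707791, minus strand: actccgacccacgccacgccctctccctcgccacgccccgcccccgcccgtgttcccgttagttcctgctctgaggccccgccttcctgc
Mrpl50, chr4:49521084-49521173, minus strand: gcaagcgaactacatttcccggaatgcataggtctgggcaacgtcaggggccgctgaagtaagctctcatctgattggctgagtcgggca
Mrpl32, chr13:14613038-14613127, minus strand: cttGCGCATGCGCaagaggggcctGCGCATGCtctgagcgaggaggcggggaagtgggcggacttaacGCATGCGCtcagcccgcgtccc
Mrps27, chr13:99344696-99344785, plus strand: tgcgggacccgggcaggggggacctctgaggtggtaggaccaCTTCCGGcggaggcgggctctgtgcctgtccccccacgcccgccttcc
Mrps11 and Mrpl46, chr7:78783090-78783130, plus strand, between the 2 starts: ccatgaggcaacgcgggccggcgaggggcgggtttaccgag
The Mrpl32 stretch holds 4 NRF1 matches, of which 2 overlap, at 87, 85, 66 and 22 bases before the start, and the Mrps27 stretch holds 1 ETS match. The stretches of Mrpl45, Mrpl42, Mrps24 and Mrpl50 and the shared gap hold none of these letters, though Mrpl42 and Mrps24 have a YY1 match just past the start.

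Over the whole window from 250 bases before to 50 after the start, 52.9% of the 68 members held at least 1 of the 3 motifs, against 26.0% of the promoters of the 9687 tested genes in the table and 13.8% of all 27025. The ETS letters were in 35.3% of member promoters and 17.9% of tested ones. The YY1 letters were in 17.6% and 4.82%, and the NRF1 letters in 11.8% and 5.63%. ACGTG, a core bound by hypoxia-inducible factors, was in 22.1% of member promoters and 26.0% of tested ones. Promoters of nuclear oxidative phosphorylation subunits held at least 1 of the first 3 motifs in 45.2% of cases and those of cytosolic ribosomal proteins in 50.0%. The 36 members with such a match had a median log2 change in hypoxia of 0.12 and the 32 without one of 0.06. For hypoxia with T3 against hypoxia these medians were 0.10 and 0.09, and against normoxia 0.21 and 0.12. The difference between the 2 sets was not tested. The windows of the members were 58.2% G and C at the median and those of the tested genes 61.7%. A match is a run of letters, not a measured binding site.

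Values are TMM-normalized CPM, read counts that the authors scaled by library size and by a further factor for each library. The column sums therefore differ, from 945822 in hypoxia 9 to 1091200 in normoxia 1. Library depth, recovered from the values, ran from 17182338 reads in hypoxia 7 to 33937842 in normoxia 2, and 1 read was worth 0.0302 to 0.0565 CPM. The fewest reads of any member in any library were 57, for Mrps28 in hypoxia 7. Mrpl47, another low member, held 160 to 283 reads. The part of counting noise in the spread between libraries was not tested. Per kilobase of transcript in normoxia, levels ranged from 2.41 CPM per kb for Mrpl47 to 51.2 for Mrpl42. Mrps18a (43.0), Mrpl20 (41.8), Mrps21 (39.7) and Mrpl12 (38.6) followed at the top, and Mrps14 (3.07), Mrps35 (3.37) and Mrpl1 (3.43) stood near the bottom. These per-length levels use 1 principal transcript per gene, and a long untranslated end in that transcript lowers them.

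The members as a set stood slightly higher in hypoxia than in normoxia and higher again with T3. The median of the 77 log2 values, each set against its own normoxia mean, was 0.00, -0.04 and 0.04 in normoxia 1, 2 and 3. It was 0.10, 0.13 and 0.11 in hypoxia 7, 8 and 9 and 0.22, 0.19 and 0.13 in T3 11, 12 and 13. Summed over the members, the levels were 1790, 1730 and 1820 CPM in normoxia, 1900, 1880 and 1940 in hypoxia, and 2110, 2050 and 1990 with T3. The 3 groups did not overlap on either measure, except that the median of T3 13 equalled that of hypoxia 8. The first principal component of the members' log2 values held 71.3% of their variance and ran from -1.73 to -1.12 in normoxia, from 0.07 to 0.49 in hypoxia and from 0.86 to 1.52 with T3. The first component of all genes tested set the groups apart in the same order, so this order is not particular to the members. It ran from -38.2 to -28.4 in normoxia, from 2.5 to 14 in hypoxia and from 17.6 to 32 with T3.

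**Figure D1:**
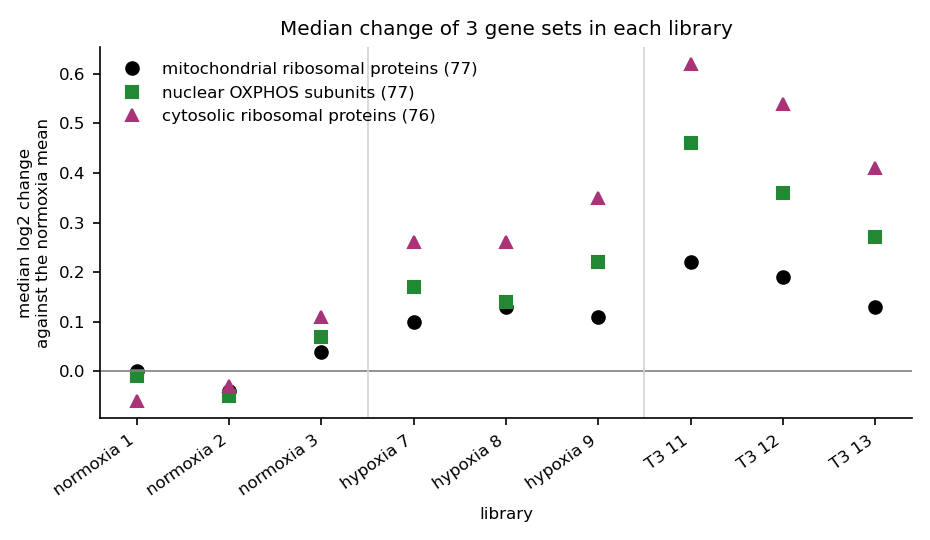
Median log2 change against the normoxia mean (vertical axis) in each of the 9 libraries (horizontal axis), for the 77 mitochondrial ribosomal protein genes (circles), 77 nuclear subunits of oxidative phosphorylation (OXPHOS, squares) and 76 cytosolic ribosomal protein genes (triangles). T3 stands for hypoxia with T3. The circles lie at 0.10 to 0.13 in hypoxia and 0.13 to 0.22 with T3, below the triangles in all 6 of these libraries.

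Hypoxia against normoxia asks how these genes respond to low oxygen. By limma with Benjamini-Hochberg adjustment over the 12923 genes, 17 of the 77 members were higher at an adjusted p under 0.05, 4 were lower and 56 did not pass. That is 27.3% of the members, near the 33.6% of all genes tested. Among all genes 14.3% were called higher and 19.3% lower by limma, against 22.1% and 5.19% of the members. By edgeR 24 members were higher and 3 lower, with 33.3% of all genes called. By DESeq2 19 were higher and 4 lower, with 34.6% of all genes called. The median log2 change of the members was 0.11 and that of all genes 0.00, and 54 of the 77 lay above 0. The ranges of the 3 hypoxic and 3 normoxic libraries did not overlap for 30 members that were higher (39.0%, against 20.7% of all genes) and for 6 that were lower (against 27% of all genes). The changes were small, from -0.43 to 0.45 on the log2 scale.

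The split depends on how libraries are scaled and on single libraries. With equal column sums, which raises the median of all genes by 0.13, 39 members were higher and 0 lower by limma, with a member median of 0.24 and 40.3% of all genes called. Without normoxia 2, or without hypoxia 9, 8 members were higher, with 26.3% and 22.9% of all genes called. The number lower fell to 1 or 2 without any 1 of the 6 libraries compared. Of the 21 calls 6 held without every library in turn, those of Mrpl45, Mrps34, Mrpl42, Mrps24, Mrpl50 and Mrpl13. No called member changed sign under any of the alternatives, 20 of the 21 were past the threshold by edgeR and 21 by DESeq2.

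**Figure D2:**
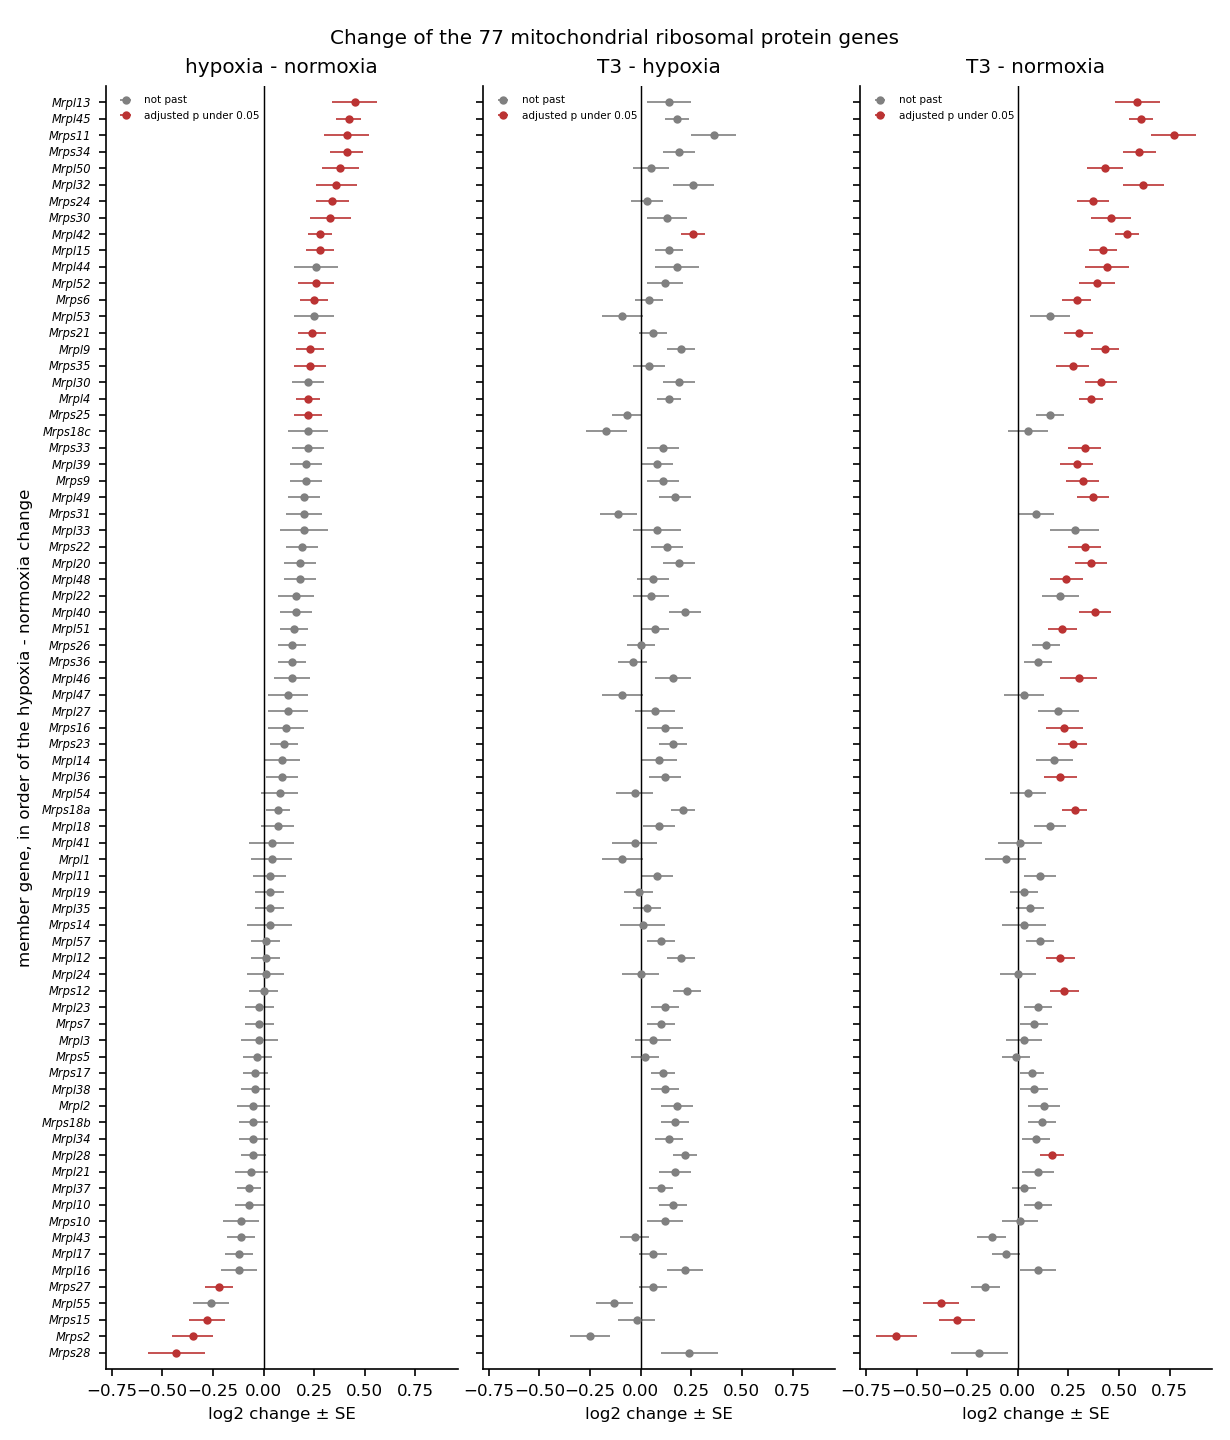
Log2 change (horizontal axes, point) with its SE (bar) for each of the 77 members, in order of the change between hypoxia and normoxia, in the 3 comparisons (T3 stands for hypoxia with T3). Red points have a limma adjusted p under 0.05: 21 members for hypoxia against normoxia, 1 for T3 against hypoxia and 38 for T3 against normoxia.

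In the large subunit, Mrpl45 had the smallest adjusted p. Its protein lies at the exit of the peptide tunnel and holds the ribosome at the inner membrane. The gene lies on chromosome 11 (97315716 to 97329920, plus strand, GRCm38). It stood at 28.5, 26.1 and 27.1 CPM in normoxia, 35.3, 39.0 and 36.3 in hypoxia and 42.1, 42.2 and 41.7 with T3. The 3 groups do not overlap, and the T3 libraries are nearly level. The log2 change in hypoxia was 0.42 (SE 0.06, limma adjusted p = 0.00084), and the highest adjusted p with a library left out was 0.0045.

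Mrpl13, a counterpart of a bacterial large-subunit protein (chromosome 15, 55534094 to 55557748), had the largest increase. Its values were 10.0, 10.5 and 12.6 CPM in normoxia, 13.5, 15.3 and 17.5 in hypoxia and 17.2, 16.1 and 17.9 with T3. Hypoxia lay above normoxia in every library, while hypoxia and T3 overlapped. The change was 0.45 (SE 0.11, limma adjusted p = 0.011).

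Mrpl42, a protein found in mitochondrial but not bacterial ribosomes (chromosome 10, 95480805 to 95501940), rose in both steps. It measured 35.6, 31.8 and 34.8 CPM in normoxia, 42.4, 40.4 and 41.8 in hypoxia and 52.0, 49.3 and 48.5 with T3. No 2 groups overlap. The log2 change in hypoxia was 0.28 (SE 0.06, limma adjusted p = 0.0070).

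Mrpl50, another addition of the mitochondrial lineage, went from 37.1, 31.5 and 37.3 CPM in normoxia to 52.3, 42.1 and 44.7 in hypoxia, up by 0.38 on the log2 scale (SE 0.09, limma adjusted p = 0.0092). With T3 it stood at 48.6, 49.5 and 45.4 CPM, inside the range of hypoxia. Mrpl32 encodes a protein that the m-AAA protease of the inner membrane must trim before it joins the ribosome. It stood at 14.8, 13.0 and 14.7 CPM in normoxia, 17.7, 17.7 and 20.1 in hypoxia and 24.0, 23.6 and 19.4 with T3. The hypoxic values lay above normoxia and overlapped T3 through T3 13. Its change of 0.36 (SE 0.10, limma adjusted p = 0.019) missed the threshold without normoxia 2 or without hypoxia 9 (highest adjusted p 0.072).

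Mrpl15 (25.4 ± 0.420 and 31.0 ± 1.11 CPM, SD, n = 3) rose by 0.28 on the log2 scale, with a limma adjusted p of 0.014. Mrpl52 (14.8 ± 0.555 and 18.0 ± 1.48 CPM) rose by 0.26 (0.044), Mrpl9 by 0.23 (0.024) and Mrpl4, which lines the peptide tunnel, by 0.22 (0.017). The Mrpl15 call was lost without hypoxia 9, and those of Mrpl4, Mrpl9 and Mrpl52 without 2, 5 and 7 of the libraries. Mrps30 is named for the small subunit, but its protein sits in the large one. Its level was 20.9 ± 1.96 CPM in normoxia and 26.7 ± 3.52 CPM in hypoxia, with a log2 difference of 0.33 (SE 0.10, limma adjusted p = 0.025), a call lost without normoxia 2, normoxia 3, hypoxia 7 or hypoxia 9.

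In the small subunit, Mrps34 encodes a mitochondrial addition that the stability of the subunit requires (chromosome 17, 24895116 to 24897502). It stood at 15.5, 13.8 and 14.5 CPM in normoxia, 18.6, 19.1 and 21.6 in hypoxia and 21.8, 22.4 and 23.8 with T3. The groups do not overlap, though hypoxia 9 comes within a small gap of T3 11. The log2 change in hypoxia was 0.41 (SE 0.08, limma adjusted p = 0.0040).

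Mrps11, whose bacterial counterpart lines the platform of the small subunit (chromosome 7, 78783119 to 78792989), stood at 11.8, 12 and 12.9 CPM in normoxia. It stood at 14.0, 17.3 and 18.8 in hypoxia and at 23.6, 20.9 and 20.6 with T3, again with no overlap. Its log2 change of 0.41 (SE 0.11, limma adjusted p = 0.014) missed the threshold without hypoxia 9 (adjusted p 0.059). Mrps24 rose from 16.4 ± 0.679 to 21.1 ± 1.05 CPM (log2 change 0.34, SE 0.08, limma adjusted p = 0.0083, n = 3). Mrps6, which has a bacterial counterpart, rose by 0.25 (limma adjusted p = 0.024), Mrps21 by 0.24 (0.025), Mrps35 by 0.23 (0.044) and Mrps25 by 0.22 (0.030), each lost without 3 or more of the libraries.

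The 4 members that fell are all named for the small subunit. Mrps2, a counterpart of a bacterial small-subunit protein, stood at 40.2, 38.8 and 36.6 CPM in normoxia, 29.0, 28.3 and 33.0 in hypoxia and 21.5, 27.4 and 26.8 with T3. Each group lay below the one before it without overlap. The log2 change in hypoxia was -0.35 (SE 0.10, limma adjusted p = 0.019). Mrps28 had the largest decrease and the widest spread within groups of all members. It stood at 6.16, 5.83 and 6.00 CPM in normoxia and at 3.22, 4.35 and 5.24 in hypoxia, and at 5.19, 5.16 and 5.10 with T3. Its change of -0.43 (SE 0.14, limma adjusted p = 0.032) rests on few reads, and edgeR gave an adjusted p of 0.053.

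Mrps15 (28.5 ± 1.59 and 23.3 ± 2.59 CPM) changed by -0.28 (SE 0.09, limma adjusted p = 0.029). Mrps27, an RNA-binding pentatricopeptide repeat protein of the small subunit (27.6 ± 0.847 and 23.6 ± 1.14 CPM), changed by -0.22 (SE 0.07, limma adjusted p = 0.026). With equal column sums the 4 changes were -0.31 for Mrps28, -0.21 for Mrps2, -0.15 for Mrps15 and -0.09 for Mrps27, none past the threshold (limma adjusted p = 0.1, 0.13, 0.18 and 0.34). Each of the 4 calls was also lost without 3 to 5 of the libraries.

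**Figure D3:**
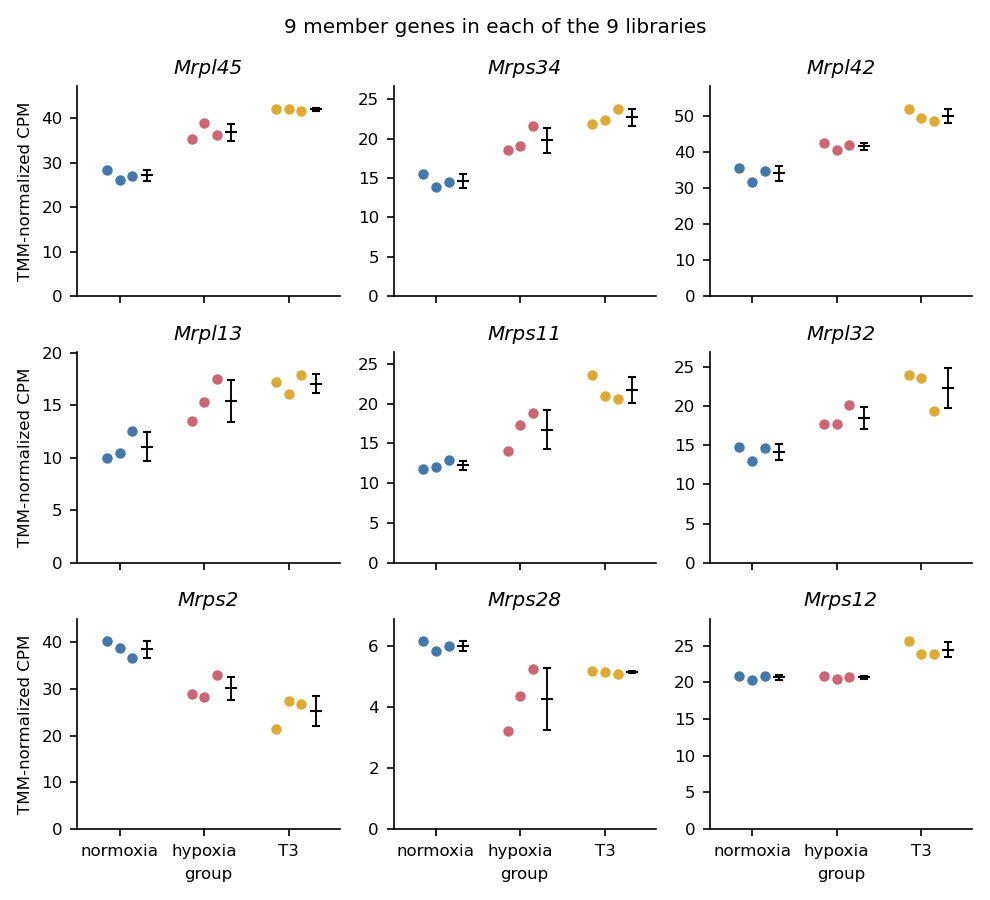
TMM-normalized CPM (vertical axes, from 0) of 9 members in the 3 libraries of each group (coloured points; T3 stands for hypoxia with T3), with the mean and SD in black. Mrpl45, Mrps34, Mrpl42 and Mrps11 step up from each group to the next without overlap and Mrps2 steps down, while Mrps12 is level in normoxia and hypoxia and higher with T3.

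Members were also grouped by subunit and by whether bacteria have a counterpart, from general knowledge of the ribosome. In hypoxia, the 20 large-subunit proteins specific to mitochondria had a median log2 change of 0.17, with 5 higher by limma (25%). The 30 with a bacterial counterpart had 0.04, also with 5 higher (16.7%). No member of these classes was called lower by limma, edgeR or DESeq2; at an unadjusted p under 0.05 limma gave 1, Mrpl55 (log2 change -0.26, adjusted p = 0.057). The 10 small-subunit proteins specific to mitochondria had a median of 0.20, with 3 higher (30%) and 1 lower (10%). The 16 with a counterpart had 0.01, with 4 higher (25%) and 3 lower (18.8%). Of all genes tested 14.3% were higher and 19.3% lower. The mitochondrial additions thus had the higher median in both subunits, but the values of the classes overlapped widely and the difference between them was not tested. With T3 against hypoxia the medians of the same 4 classes, in the order named, were 0.11, 0.12, 0.09 and 0.08, a much narrower range. Mrps36, since assigned to the oxoglutarate dehydrogenase complex, stood at 24.4 ± 1.46, 27.0 ± 1.07 and 26.3 ± 0.731 CPM in the 3 groups (log2 change in hypoxia 0.14, limma adjusted p = 0.15).

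**Figure D4:**
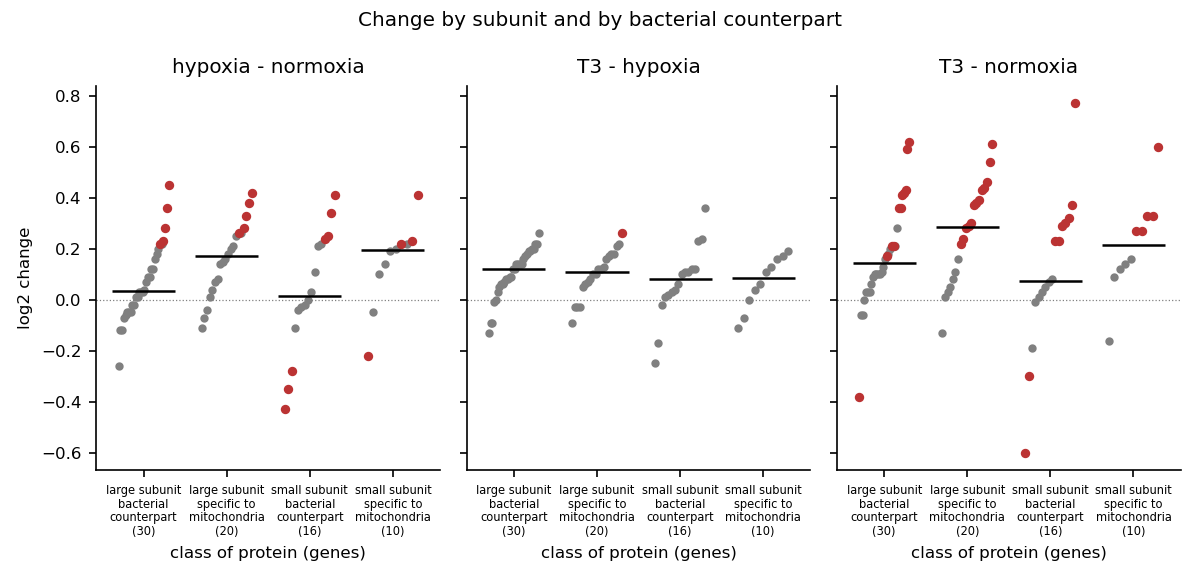
Log2 change of each member (vertical axis, points) by subunit and by bacterial counterpart (horizontal axis, number of genes in brackets) in the 3 comparisons; red points have a limma adjusted p under 0.05, black lines are medians, and T3 stands for hypoxia with T3. In the left panel the medians are 0.04, 0.17, 0.01 and 0.20 from left to right.

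Several members with well-known functions did not pass the threshold in hypoxia. The stalk that recruits translation factors is built on Mrpl10 and Mrpl11 and carries Mrpl12. In hypoxia, Mrpl10 changed by -0.07 (95% interval -0.21 to 0.08), Mrpl11 by 0.03 (-0.14 to 0.20) and Mrpl12 by 0.01 (-0.14 to 0.16) on the log2 scale. Mrps12 encodes the protein of the decoding site. It stood at 20.9, 20.3 and 20.9 CPM in normoxia, 20.8, 20.5 and 20.7 in hypoxia and 25.6, 23.9 and 23.9 with T3, so only the T3 libraries stood apart. Mrps5, tied to the accuracy of translation, changed by -0.03 (-0.18 to 0.13), and Mrpl3, near the peptidyl transferase centre, by -0.02 (-0.22 to 0.17). Mrpl44, which carries a ribonuclease III fold, stood at 12.9 ± 0.381 CPM in normoxia and 15.7 ± 1.76 in hypoxia without passing the threshold (log2 change 0.26, limma adjusted p = 0.082). The 3 related genes Mrps18a, Mrps18b and Mrps18c, of which the first encodes a large-subunit protein, changed by 0.07, -0.05 and 0.22, none past the threshold (limma adjusted p = 0.40, 0.63 and 0.12).

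Hypoxia with T3 against hypoxia asks what the hormone changed in hypoxic neurons. By limma 1 of the 77 members was higher, Mrpl42, and 0 were lower. That is 1.3% of the members, against 6.48% of all genes tested (2.73% higher and 3.75% lower). At an unadjusted p under 0.05 limma gave 20 members higher and 1 lower (26.0% and 1.3%, against 12.6% and 15.2% of all genes). By adjusted p, edgeR called 1 higher and 0 lower, with 6.11% of all genes called, and DESeq2 called 5 higher and 0 lower, with 13.4% of all genes called. The median log2 change was 0.10 against -0.01 over all genes, and 61 of the 77 lay above 0. The ranges did not overlap for 28 members that were higher with T3 (36.4%, against 15.8% of all genes) and for 1 that was lower (against 15.8%), Mrps2. The median half-width of a member's 95% interval was 0.17 on the log2 scale, as wide as most of these changes, so for most single members a change of this size was not detectable.

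Mrpl42 changed by 0.26 with T3 (SE 0.06, limma adjusted p = 0.039). That call was lost without any 1 of hypoxia 7, hypoxia 8, hypoxia 9, T3 11 and T3 12 (highest adjusted p 0.16). With 1 library left out, the number of members called higher ran from 0 to 5, the latter without T3 13 (14.1% of all genes called). The members next to the threshold were Mrpl28 with a log2 change of 0.22 (limma adjusted p = 0.051), Mrps18a with 0.21 (0.053), Mrps12 with 0.23 (0.056) and Mrps11 with 0.36 (0.063). Mrpl28 stood at 35, 34.2 and 35.4 CPM in hypoxia and 43.2, 40.3 and 39.4 with T3. Mrps18a stood at 38.3, 40.3 and 41.1 in hypoxia and 47.3, 46.3 and 45.4 with T3. In each of these 4 genes all T3 libraries lay above all hypoxic ones. Mrps2 changed by -0.25 (limma adjusted p = 0.12).

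Hypoxia with T3 against normoxia joins both steps, and it shares its libraries with the other 2 comparisons. By limma 35 members were higher and 3 lower, 49.4% of the members against 55.1% of all genes (25.5% higher and 29.5% lower). The median log2 change was 0.17 against 0.00, and 68 of the 77 lay above 0. The largest increases were those of Mrps11 (0.77, limma adjusted p = 0.00015), Mrpl32 (0.62, 0.00040), Mrpl45 (0.61, 2.5e-05), Mrps34 (0.60, 0.00015), Mrpl13 (0.59, 0.0011), Mrpl42 (0.54, 5e-05), Mrps30 (0.46, 0.0025) and Mrpl44 (0.44, 0.0047). The 3 that fell were Mrps2 (-0.60, 0.00038), Mrpl55 (-0.38, 0.0054) and Mrps15 (-0.30, 0.014). Mrpl55, a large-subunit protein, stood at 12.6, 15.1 and 14.0 CPM in normoxia, 11.6, 10.7 and 12.1 in hypoxia and 10.8, 10.6 and 9.81 with T3, so that normoxia lay above both other groups. Of the 38 calls, 27 held without every library in turn. Equal column sums, which raise the median of all genes by 0.10 here, gave 53 higher and 2 lower and a member median of 0.28. In that setting 57.1% of all genes were called.

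The members with the widest spread within groups were Mrps28, Mrpl41 and Mrpl33, with within-group SDs of 0.17, 0.16 and 0.15 on the log2 scale. Mrpl41 stood at 21.7, 26.4 and 29.4 CPM in normoxia, 29.3, 25.2 and 24.8 in hypoxia and 28.3, 24.7 and 24.7 with T3. Mrpl33 stood at 9.66, 9.79 and 11 CPM in normoxia, 12.9, 12.1 and 10.4 in hypoxia and 14.6, 11.2 and 11.9 with T3. The groups overlap in both genes, except that the T3 libraries of Mrpl33 all lay above normoxia, and neither gene passed the threshold in any comparison.

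The rest of the machinery was counted with lists chosen from general knowledge. Of all genes tested 14.3% were called higher and 19.3% lower in hypoxia. Of 6 tested mitoribosomal proteins that carry other names, 2 were higher in hypoxia by limma, Gadd45gip1 (log2 change 0.30, adjusted p = 0.0062) and Chchd1 (0.37, 0.013). Dap3, the GTP-binding protein of the small subunit, stood at 0.09 (0.22) and Ict1, a peptidyl-tRNA hydrolase of the large subunit, at -0.21 (0.19). Of 28 genes of assembly and ribosomal RNA modification 3 were higher (10.7%) and 2 lower (7.14%), with a median of 0.00. They included Noa1 (0.41, limma adjusted p = 0.0060) and Ngrn (0.38, 0.0061), both needed for assembly, and Trub2 (-0.41, 0.0060), a pseudouridine synthase. On a list of 15 translation factors and related genes 1 was higher, Oxa1l (0.26, 0.014), which inserts new chains into the inner membrane and is not itself a translation factor. Gfm2, a recycling factor, was lower (-0.32, 0.0059).

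Of the 17 mitochondrial aminoacyl-tRNA synthetases, which charge the tRNAs this ribosome uses, 5 were lower in hypoxia by limma and 0 higher, with a median of -0.16, and 1 of the 17 lay above 0. That is 29.4% lower, against 19.3% of all genes. At an unadjusted p under 0.05 the counts were 6 lower and 0 higher, and edgeR and DESeq2 each gave 4 lower and 0 higher. Rars2 changed by -0.48 (limma adjusted p = 0.0067), Pars2 by -0.42 (0.019), Fars2 by -0.42 (0.036) and Mars2 by -0.40 (0.020). The fifth was Lars2 (-1.79, 0.010), whose values spread widely, at 1730 ± 1290 CPM in hypoxia, and which is also on the list of RNA quality genes. With equal column sums 2 synthetases were lower and 1 higher. With T3 against normoxia 8 were lower (47.1%, against 29.5% of all genes) and 1 higher.

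Of 21 genes of mitochondrial RNA synthesis and processing 5 were higher (23.8%, against 14.3% of all genes) in hypoxia. In the same list 1 was lower (4.76%, against 19.3%), and the median was 0.13. Trmt10c, a subunit of the mitochondrial RNase P, changed by 0.42 (limma adjusted p = 0.011), the RNA granule protein Grsf1 by 0.22 (0.011) and Lrpprc, which stabilises mitochondrial messages, by -0.17 (0.018). Of 10 proteases and chaperones Hspe1 was higher by limma (0.39, 0.019), and Spg7 (-0.38, 0.0037) and Afg3l2 (-0.17, 0.046), subunits of the m-AAA protease that trims Mrpl32, were lower. By edgeR and by DESeq2 2 of the 10 were higher and 1 lower, and with equal column sums 4 were higher and 1 lower. Among 10 regulators of nuclear genes for mitochondria, limma called 1, Ppargc1a, which encodes the coactivator PGC-1 alpha. It stood at 33.1 ± 2.61 CPM in normoxia, 23.4 ± 1.66 in hypoxia and 19.9 ± 1.98 with T3, with a log2 change of -0.48 in hypoxia (adjusted p = 0.0030). Nrf1 changed by -0.04 (0.77), Gabpa by 0.24 (0.065) and Yy1 by 0.15 (0.20) in hypoxia.

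Related families were counted in the same way. Of 77 tested nuclear OXPHOS subunits 34 were higher (44.2%, against 14.3% of all genes) and 1 lower in hypoxia by limma (median 0.17). Of 76 cytosolic ribosomal proteins 60 were higher (78.9%) and 0 lower (median 0.29). For the latter the counts were 68 and 0 unadjusted, 67 and 0 by edgeR and 67 and 0 by DESeq2. Examples are Ndufv3 (0.32, limma adjusted p = 0.0013) and Ndufa4 (0.42, 0.0019) among the OXPHOS subunits and Rpl35 (0.43, 0.0011) among the cytosolic ribosomal proteins. Without hypoxia 9 the limma counts of higher genes in the 2 families fell to 16 and 45, with 22.9% of all genes called. With T3 against hypoxia, 8 and 18 were higher (10.4% and 23.7%, against 2.73% of all genes) with medians of 0.19 and 0.24. Leaving out single libraries moved these counts between 0 and 32 and between 0 and 65, with 0.24% to 14.1% of all genes called. The members' medians of 0.11 and 0.10 were the smallest of the 3 families in both steps. The difference between the families was not tested.

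Mitochondrial ribosomal protein genes are short. They spanned 7894 bases at the median, against 26241 over the 11897 tested genes found in the annotation (GENCODE vM21). When all tested genes were cut by span into 5 bins of equal size, their median log2 change in hypoxia went from 0.13 in the shortest bin through 0.09, 0.03 and -0.07 to -0.29 in the longest. With T3 against hypoxia it went from 0.08 through 0.07, 0.02 and -0.05 to -0.21. The shortest bin, up to 8859 bases, held 47 members, whose median change in hypoxia was 0.07, below the 0.13 of that bin. The second held 18, with a median of 0.20 against 0.09. Of the remaining bins the third held 5, the fourth 6 and the longest 1, Mrps28. In hypoxia, members thus lay below the genes of like length in the shortest bin and above them in the second. With T3 against hypoxia they lay above them in both, at 0.12 against 0.08 and at 0.11 against 0.07. How far gene length bears on the members' changes was not tested.

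**Figure D5:**
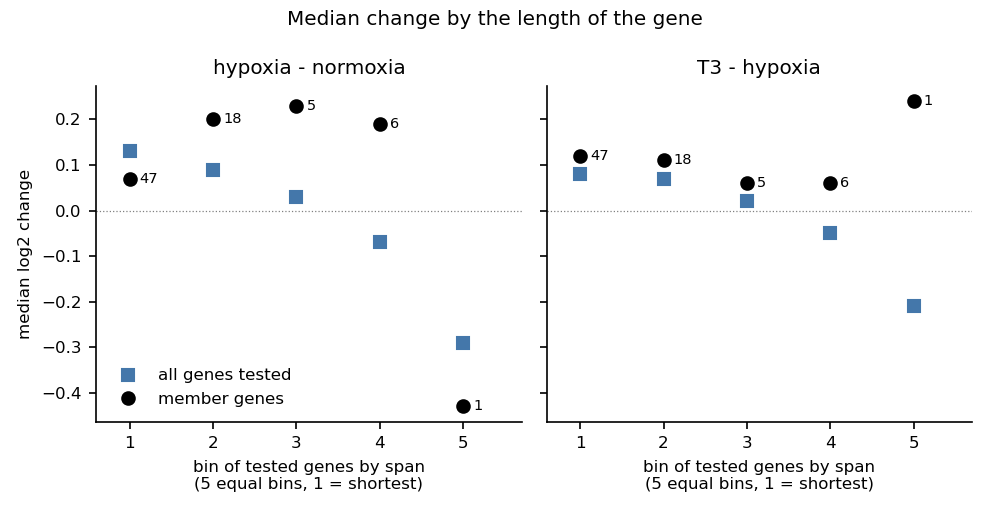
Median log2 change (vertical axis) of all tested genes (squares) and of the members (circles, with their number) in 5 equal bins of the tested genes by gene span (horizontal axis, 1 the shortest), for hypoxia against normoxia and for hypoxia with T3 (T3) against hypoxia. The squares fall from 0.13 to -0.29 on the left and from 0.08 to -0.21 on the right; 47 of the 77 members lie in the shortest bin, and the circles of the last 3 bins rest on 6 genes or fewer.

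Many members share a start region with a neighbour. In 22 of the 77 (28.6%) the next gene starts within 1000 bases in the opposite direction, against 10.7% of the tested genes. Mrps11 and Mrpl46 start 30 bases apart in this annotation. Mrpl46 stood at 13.4, 12.5 and 13.7 CPM in normoxia, 15.1, 13.3 and 15.6 in hypoxia and 16, 17.2 and 16.2 with T3. Its change in hypoxia was 0.14 (limma adjusted p = 0.22), next to 0.41 for Mrps11. Mrpl32 starts 75 bases from Psma2, a proteasome subunit with a change of -0.06 (0.41), and Mrps34 29 bases from Eme2 (-0.31, 0.089). Mrpl49 starts 182 bases from Fau, which encodes a cytosolic ribosomal protein and rose by 0.36 (0.0021), while Mrpl49 stood at 0.20 (0.068). Mrps18b starts 177 bases from Ppp1r10, which rose by 0.42 (0.00096), while Mrps18b stood at -0.05. The 2 genes stood at different values in each of these pairs, which are a selection. In other pairs they stood closer in hypoxia, such as Mrpl18 and Tcp1 (0.07 and 0.01) and Mrps18c and Helq (0.22 and 0.14). The difference within pairs was not tested.

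Shared exon bases limit some of these values, because the sources used here do not say whether counting used the strand of the reads. In the annotation 32 members share exon bases with another gene, 20 of them with a tested one. Of the exon bases of Mrps25, 69.8% overlap Nr2c2 on the opposite strand, which fell in hypoxia (-0.31, limma adjusted p = 0.0051). Of those of Mrps34, 63.4% overlap Mapk8ip3 on the opposite strand (-0.01, 0.91) and 37.0% overlap Nme3 on the same strand (0.26, 0.14). Mrps24 shares 15.4% with Urgcp and Mrps6 10.4% with Slc5a3, both on the same strand, and Mrps11 and Mrpl46 share 173 bases. The levels of these members are uncertain to that extent. The annotation also holds 5 pseudogenes whose names start with Mrpl or Mrps and a number, and their part in the values was not tested.

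The labels were checked on other genes. All 6 genes looked at for low oxygen were higher in hypoxia, among them Slc2a1, a glucose transporter, from 9.70 ± 0.422 to 55.7 ± 6.81 CPM. Of 3 genes looked at for T3, limma called 2 higher in T3 against hypoxia, and 1 was already called higher in hypoxia against normoxia. Hr, a target of T3, stood at 4.70 ± 0.435 CPM in hypoxia and 32.8 ± 2.36 with T3 as deposited, in a row with a value that is no whole number of reads. Such rows were left out of edgeR and DESeq2, which called 0 and 1 of the 3 genes higher in T3 against hypoxia. No member is in such a row. Summed neuron markers (8 of 8 past the filter) ran from 5070 to 5400 CPM in normoxia, 3580 to 4000 in hypoxia and 3190 to 3380 with T3. Most of that difference was in Tubb3, a neuronal tubulin, and without it the sums ran from 2790 to 3030, 2550 to 2830 and 2540 to 2620 CPM. Astrocyte markers (6 of 7) ran from 175 to 265, 185 to 342 and 236 to 323 CPM, and without Slc1a2, the most abundant, from 7.12 to 66.9, 29.5 to 150 and 60.8 to 132. Oligodendrocyte markers (6 of 7) ran from 39.4 to 133, 75.8 to 195 and 124 to 172, and progenitor markers (5 of 6) from 16.9 to 102, 50.2 to 144 and 76.6 to 138. Microglial (0 of 6 past the filter) and endothelial and mural markers (0 of 5) summed to at most 1.83 CPM in any library, though no marker was at 0 in all of them. The ribosomal RNA precursor Rn45s made up between 3.25% and 4.21% of a normoxic column and between 1.04% and 1.33% of a hypoxic one. With T3 it made up between 1.04% and 2.65%, and its share and the members' median were both highest in T3 11 and lowest in T3 13. In hypoxia the order was the reverse. The Rn45s share was highest in hypoxia 7 (1.33%), where the members' median was lowest (0.10). It was lowest in hypoxia 8 (1.04%), where that median was highest (0.13). The part of cell makeup and of RNA handling in the members' changes was not tested, and fewer cells of a type and less RNA per cell cannot be told apart in these samples.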

How the data were processed

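Polyadenylated RNA of 9 libraries was read from 1 deposited table with a column per library. The deposited table holds a scaled signal, TMM-normalized CPM. The mm10 genome, Bowtie2 2.1.0, RSEM 1.2.15 and edgeR are named per the submitters' processing notes, the last without a version. The annotation and the strand of counting are not given in the sources used here. In 99.89% to 100.0% of cells of a column the deposited signal is a whole multiple of the value of 1 read (within 0.01 reads), which gave 17182338 to 33937842 reads per library; 35 rows held other values, none of them a member's. A further column, unnamed and with 4 values, was not used (1 column of no sample). Libraries were grouped by their headers.

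Genes above 1 CPM in at least 3 libraries (12923) were fitted together in limma 3.58.1 (R 4.3.3) on log2(value + 1), with a variance trend and 6 residual degrees of freedom. Tests were two-sided, adjusted by Benjamini-Hochberg over all 12923 genes, with a threshold of 0.05. A log2 change is a difference of group means on that scale and understates changes of low genes. Means ± SD are of the values, n = 3. The recovered reads were also tested with edgeR 4.0.16 (quasi-likelihood) and DESeq2 1.42.0. The method was tested on simulated counts, with changes all larger than any member's change in hypoxia. That test therefore does not cover changes of the members' size. Alternatives are named in the closing section; 2 of them were chosen after seeing the data. The members and gene lists were chosen with earlier results of these data known. Named members are those called with the largest change (up to 12 in each direction in hypoxia, 8 in the others), the 3 of widest spread and 15 picked by role; other members were named after their values were seen. Pathway genes are among the 3 of a list with the smallest adjusted p, or were named for their role. Positions, spans and exons came from GENCODE vM21 on GRCm38 and promoters from RefSeq.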

Additional observations from a re-analysis of the deposited data

How the results depend on the processing

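No paired analysis was possible because the numbers in the hypoxia (7 to 9) and T3 (11 to 13) column headers are not those of the sample titles. Of the 24 alternatives, those that moved a count or median follow; the cause was not tested. In hypoxia against normoxia 17 members were higher and 4 lower, with a median of 0.11 and 33.6% of all genes called. These became 10 and 1 without a filter on low values, where 12% of all genes were called. At a threshold of 0.01 they became 5 and 0 (16.8% of all genes). With equal column sums they became 39 and 0 with a median of 0.24 (40.3% of all genes). The median was 0.15 by edgeR. Leaving out 1 library gave 8 to 18 higher and 1 to 4 lower, with 22.9% to 33.8% of all genes called. Without normoxia 1, hypoxia 7 and T3 11 together, which stood apart on the second component of all genes, 8 were higher and 0 lower, with 22.6% of all genes called.

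In T3 against hypoxia 1 member was higher by limma. The count was 0 without a filter, with only the 2 groups compared and without the variance trend. It was also 0 at a threshold of 0.01 and without those 3 libraries. Across these settings 0.0851% to 2.13% of all genes were called. The count of members was 4 with a mean of at least 5 CPM (10.6% of all genes called) and 5 with quantile normalization (8.04%). It was 11 of 77 with library weights (23.6%), 5 by DESeq2 (13.4%), and 0 to 5 with 1 library left out (0.24% to 14.1%). In T3 against normoxia the 35 higher became 53, and the median of 0.17 became 0.28, with equal column sums (57.1% of all genes called). The median was 0.21 with quantile normalization. The other alternatives, among them pseudocounts of 0.1 and 5, median-of-ratios scaling and leaving out the 35 rows with values that are no whole reads, kept the counts within 1.5 times. Reads recovered from scaled values bound counting error only. With 3 libraries per group, the median 95% half-width of a member's change in T3 against hypoxia was 0.17. That interval is not adjusted over genes. Larger changes also missed the adjusted threshold, such as 0.36 for Mrps11 (limma adjusted p = 0.063).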

Other observations

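Several further members stood just outside the threshold in hypoxia. Mrpl30 changed by 0.22 on the log2 scale (limma adjusted p = 0.050), Mrps33 by 0.22 (0.054), Mrps9 by 0.21 (0.055) and Mrpl49 by 0.20 (0.068), and the 3 hypoxic libraries lay above the 3 normoxic ones in each of these genes. Mrps9 stood at 15.3, 15.4 and 14.4 CPM in normoxia, 18.5, 17.2 and 16.9 in hypoxia and 18.7, 18.6 and 19.8 with T3. Mrps31, an addition of the mitochondrial lineage, stood at 13.1, 11.8 and 13.7 CPM in normoxia, 16, 14.2 and 14.7 in hypoxia and 14.4, 13.7 and 13.1 with T3. Its values were highest in hypoxia, and neither step passed the threshold (limma adjusted p = 0.10 and 0.44). Mrps17 had the narrowest spread within groups of all members, an SD of 0.03 on the log2 scale, and stood at 29.3, 29.5 and 29.3 CPM in normoxia, 28.0, 27.9 and 29.9 in hypoxia and 31.0, 30.5 and 30.9 with T3. Its change with T3 against hypoxia was 0.11 (limma adjusted p = 0.29), with no overlap between the libraries.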
